A study of Mus musculus with 8 samples.

Results

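The 39 genes described here are those of the interferon response and of MHC class I antigen presentation. They were taken by gene symbol from the 39179 genes of the deposited count table by a list of names that uses no measured value but was drawn up with earlier results of these data known, and all 39 symbols were found. By role they are 4 receptor genes, 3 cytosolic RNA sensor genes, 6 transcription factor genes, 19 effector genes and 7 class I presentation genes. A filter on low counts left 13626 genes for testing, among them 28 of the 39. The other 11 had 0 to 18 counts in each library.

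Interferons are secreted proteins that alert cells to infection. Type I interferons bind the receptor made of IFNAR1 and IFNAR2, interferon gamma binds the receptor made of IFNGR1 and IFNGR2, and Janus kinases at the receptors then phosphorylate STAT proteins. STAT2 acts with IRF9 at interferon-stimulated response elements (ISRE), and pairs of STAT proteins bind gamma-activated sites (GAS). The genes they induce block viral replication and raise the display of peptides on MHC class I molecules, which is how cytotoxic T cells recognise a tumour cell.

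PolyA RNA was measured in mouse epithelial cancer cells of the pancreas (strain FVB/B6 mix, with p48Cre, ROSA_rtTAL+ and p53L+ in the genotype label), in which the Cre recombinase is driven from the p48 (Ptf1a) locus of pancreatic progenitors. In both arms these GFP-labelled cells had grown for 72 h with RFP-labelled pancreatic stellate cells, which resemble fibroblasts, in 0.5% dialyzed serum, and were then sorted by colour so that only the cancer cells were sequenced. In 4 libraries the secreted signal sonic hedgehog (SHH) had been neutralized with an antibody at 20 µg/mL, and 4 libraries had no antibody, with no control antibody named in the labels. The labels describe each arm as 4 biological samples, give no further source for them, and mention neither an added interferon nor immune cells in the culture.

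Promoter windows from RefSeq (GRCm38.p6, 250 bases before to 50 after the annotated start, printed 5′ to 3′ on the gene's strand) were found for 30 of the 39 genes. Dhx58, Mx1, Mx2, Rtp4, Parp9, Parp14, Usp18, Tap2 and Nlrc5 had no window in the table used. Each window was searched on both strands for an ISRE core (GAAA, any 2 bases, GAAA), for a GAS (TTC, any 3 bases, GAA) and for the palindromic class I kappa B element, whose letters are the capitals in H2-K1 and H2-D1. The 5 windows printed next belong to Isg15, a textbook ISRE target that had few reads here, to Bst2, which had the largest fall of the 28 genes tested, to Irf1, the transcription factor that rose, and to the classical class I genes H2-K1 and H2-D1, which both fell. Capitals mark the motif matches, which run into each other in Isg15 and Bst2.
Isg15: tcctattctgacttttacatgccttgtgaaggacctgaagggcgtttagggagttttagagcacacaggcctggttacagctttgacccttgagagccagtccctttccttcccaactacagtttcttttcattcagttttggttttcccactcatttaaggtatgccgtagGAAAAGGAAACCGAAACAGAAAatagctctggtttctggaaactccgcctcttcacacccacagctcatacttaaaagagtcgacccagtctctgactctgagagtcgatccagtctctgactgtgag
Bst2: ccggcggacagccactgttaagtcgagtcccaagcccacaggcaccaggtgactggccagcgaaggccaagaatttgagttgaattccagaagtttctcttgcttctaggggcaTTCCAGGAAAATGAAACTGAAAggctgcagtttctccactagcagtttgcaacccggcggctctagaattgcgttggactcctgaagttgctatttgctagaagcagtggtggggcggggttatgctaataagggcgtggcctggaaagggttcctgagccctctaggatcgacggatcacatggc
Irf1: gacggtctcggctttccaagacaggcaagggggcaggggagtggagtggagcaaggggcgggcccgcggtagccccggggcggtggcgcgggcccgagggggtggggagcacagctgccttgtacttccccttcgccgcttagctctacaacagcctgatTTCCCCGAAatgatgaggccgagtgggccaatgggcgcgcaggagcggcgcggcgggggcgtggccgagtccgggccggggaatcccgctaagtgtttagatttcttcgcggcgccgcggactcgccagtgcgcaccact
H2-K1: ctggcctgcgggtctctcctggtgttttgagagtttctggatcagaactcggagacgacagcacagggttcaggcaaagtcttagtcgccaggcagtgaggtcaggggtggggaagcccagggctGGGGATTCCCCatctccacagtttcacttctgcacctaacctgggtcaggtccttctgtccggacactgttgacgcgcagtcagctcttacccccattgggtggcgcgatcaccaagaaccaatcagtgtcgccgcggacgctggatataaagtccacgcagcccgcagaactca
H2-D1: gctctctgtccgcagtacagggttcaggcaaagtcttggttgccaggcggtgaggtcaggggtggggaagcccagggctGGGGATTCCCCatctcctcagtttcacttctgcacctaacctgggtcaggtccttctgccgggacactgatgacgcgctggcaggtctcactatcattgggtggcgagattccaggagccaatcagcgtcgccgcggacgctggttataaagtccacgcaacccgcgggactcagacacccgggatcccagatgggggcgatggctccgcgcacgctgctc
The Isg15 window (chr4:156200769-156201068, minus strand) holds 3 overlapping ISRE matches that begin 78, 72 and 66 bases before the start. In the Bst2 window (chr8:71537423-71537722, minus strand) a GAS match at 136 bases before the start overlaps the first of 2 ISRE matches, at 130 and 124 bases. The Irf1 window (chr11:53769764-53770063, plus strand) has 1 GAS match, 90 bases before the start, and no ISRE match. The kappa B element lies 125 bases before the start in H2-K1 (chr17:34000284-34000583, minus strand) and 171 bases before it in H2-D1 (chr17:35262844-35263143, plus strand). Both distances depend on the annotated start. The start used lies 364 bases from the deposited gene start in H2-D1 and 0 bases from it in H2-K1. These 2 windows are close relatives, with 217 of 241 aligned bases identical (90%) and a longest shared run of 47 bases.

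An ISRE core match was present in 11 of the 30 windows (36.7%), against 3.44% of all 32851 windows of the same length in the table. The 11 were those of B2m, Bst2, Ddx58, Ifih1, Ifit1, Ifit3, Irf2, Isg15, Oas1a, Rsad2 and Stat2. They made up 4 of the 8 windows of genes too low to be tested (50%) and 7 of the 22 windows of genes tested (31.8%). Among the 6 genes with a window that differed between the arms, only Bst2 matched the ISRE pattern exactly. Variant forms of the 3 motifs were not searched for, so a window without a match may still hold one. A GAS match stood in 8 of the 30 windows (26.7%), against 8.3% of all windows. The kappa B element stood in 2, H2-K1 and H2-D1, and in 10 of all 32851 (0.0304%). Its pattern was the class I element itself, so a match in class I genes was built into the search. The windows of Ifngr2 and Dtx3l held no match to any of the 3 patterns. Such a match describes the sequence and was not tested for binding.

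Each library assigned 10009711 to 15733280 counts to genes, and a count of 3 corresponds to 0.190 to 0.30 CPM, the count scaled to the library total and TMM factor. The antibody libraries were deeper, with a mean total of 15313600 ± 336754 against 12075200 ± 2122520 (SD, n = 4 each, exact permutation test, two-sided p = 0.0286, the smallest that 4 against 4 can give). Replicates 1 and 4 without antibody stood apart from replicates 2 and 3 of that arm, and from each other. The chi-square per degree of freedom was 8.68 to 10.5 between replicate 1 and the rest, highest against replicate 4. It was 4.37 and 3.75 between replicate 4 and replicates 2 and 3. Within the antibody arm it was 1.68 to 3.52, so replicate 4 was only slightly beyond that range. The defining markers of the labelled cell type were abundant in sum, with the 6 epithelial markers at 7309 to 7723 CPM with antibody and 6769 to 7760 without. Epcam was the lowest of them, with means of 25.0 and 20.5 CPM. The 15 stellate markers summed to 1214 to 1294 CPM against 1137 to 1275, nearly all of it Vim and Col5a1, with Dcn and Lum at 0 in all 8 libraries. Without Vim and Col5a1 the sum was 26.8 to 54.3 CPM against 26.8 to 47.9. The 9 leukocyte markers summed to 4.87 to 6.62 CPM against 4.92 to 6.27, with Cd3e and Emr1 among those at 0 throughout. Cd68 made up most of this sum. The 5 endothelial markers summed to 12.9 to 14.3 CPM against 11.3 to 12.9, most of it Cdh5. The 5 acinar markers summed to 2.95 to 3.81 CPM against 2.96 to 5.80. Of the 18 markers tested, the epithelial gene Epcam rose and the stellate gene Pdgfra fell (log2 fold change -0.84). Pdgfra went against the rest of its list, since the other 7 of the 8 stellate markers tested had positive values that did not pass, among them Col3a1 (0.66), Col1a2 (0.47) and Col1a1 (0.36), and the median of the 8 was 0.30. The part of residual stellate RNA in the differences was not tested. In such libraries fewer cells expressing a gene and less RNA per cell cannot be told apart.

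Ifngr1, Ifngr2, Ifnar1, B2m, the class I heavy chain genes and Tapbp were well expressed, while most effector genes were low in both arms. In the authors' RPKM values, which are per length and can be compared between genes, 19 of the 39 genes had a mean level under 1 and 10 had 10 or more. Class I genes ranged from 0.0443 for Tap1 to 138 for B2m, with a median of 29.6, and receptor genes from 5.96 for Ifnar2 to 74.9 for Ifngr1. Of the 19 effector genes 14 had a mean RPKM under 1, although Bst2 reached 27.1. The transcription factor genes ranged from 1.06 for Irf7 to 16.4 for Irf2. The 3 sensor genes were low, at 0.416 to 2.19.

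**Figure D1:**
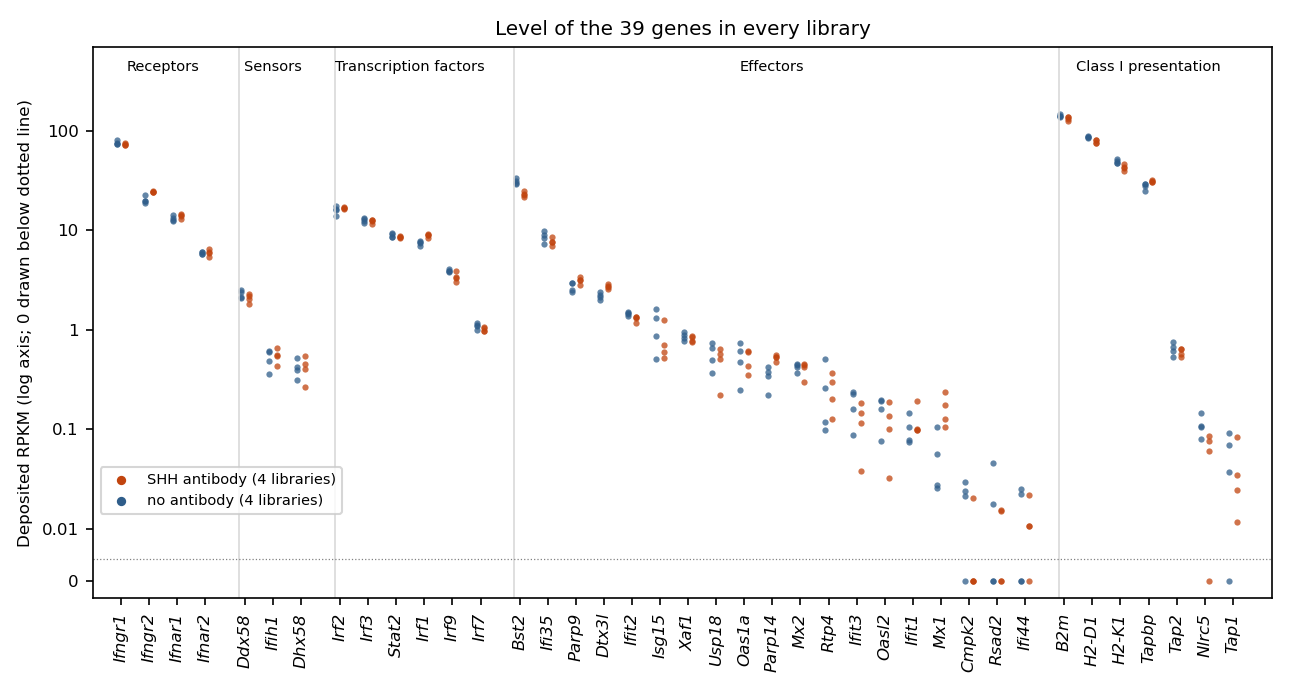
The authors' RPKM (log axis) of each of the 39 genes, grouped by role, with 1 point per library for the antibody arm and the arm without antibody. The points of both arms lie close together for the abundant genes, and the class I genes reach from Tap1 with a mean of 0.0443 to B2m with 138.

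Between the libraries with and without the SHH antibody 7 of the 28 genes tested differed, and not in a common direction. Ifngr2, Irf1, Parp14 and Dtx3l rose and Bst2, H2-K1 and H2-D1 fell (quasi-likelihood F test of edgeR, adjusted p under 0.05 by Benjamini-Hochberg over all genes tested). These are 25% of the genes tested, where 8.4% of all genes passed. The 4 that rose are 14.3%, against 4.53% of all genes, and the 3 that fell are 10.7%, against 3.87%. All changes were small, with log2 fold changes (antibody over no antibody) from -0.43 to 0.62. The median of the 28 was -0.07, with 10 above 0 and 18 below, beside a median of -0.00 over all 13626 genes. The libraries of the arms did not overlap in 9 of the 28 genes, 5 higher with antibody (7.71% of all genes) and 4 lower (6.56%). By role, 1 of 4 receptor genes, 0 of 3 sensor genes, 1 of 6 transcription factor genes, 3 of 10 effector genes tested and 2 of 5 class I genes tested changed.

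**Figure D2:**
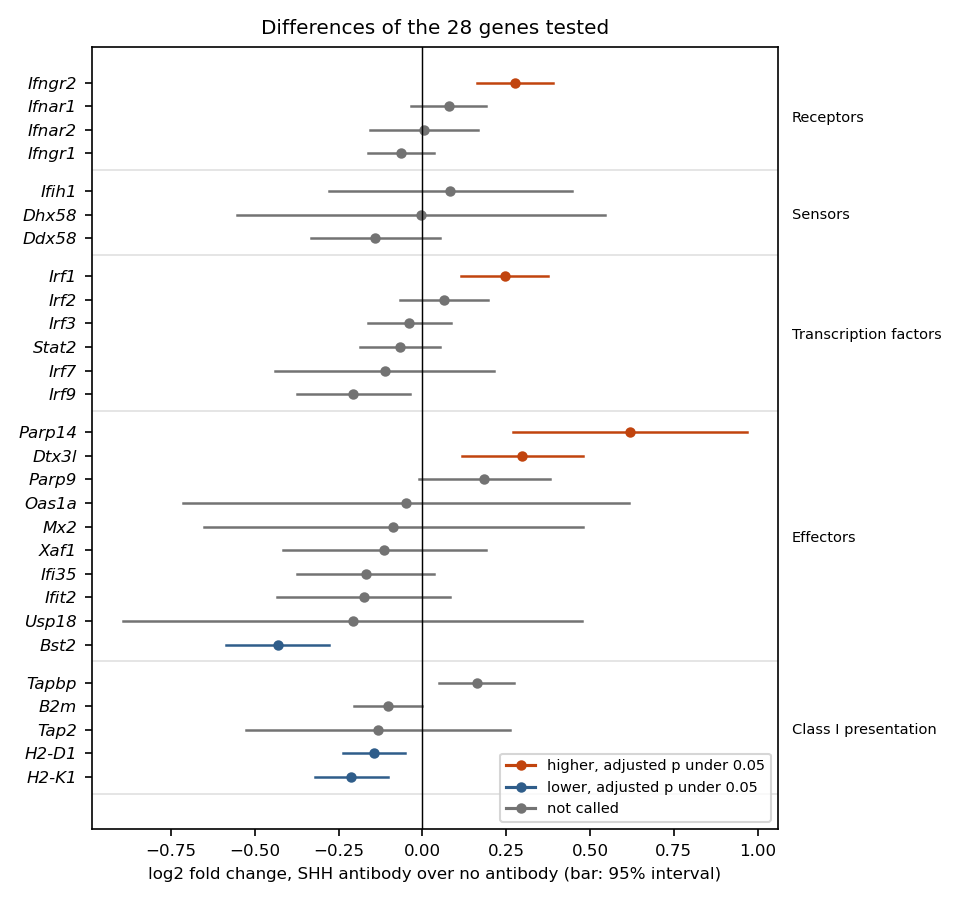
The log2 fold change of antibody over no antibody for the 28 genes tested, grouped by role, with 95% intervals as bars and colour for the call at adjusted p under 0.05. The 7 called genes lie on both sides of 0, between Bst2 at -0.43 and Parp14 at 0.62, and the widest interval of them is that of Parp14.

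Of the receptor chains only Ifngr2 passed the test. Ifngr2 encodes the signalling chain of the interferon gamma receptor, which binds the kinase JAK2 (ENSMUSG00000022965, chromosome 16, 91547072 to 91565169, GRCm38). It stood at 82.0, 81.5, 80.2 and 80.9 CPM in antibody replicates 1 to 4 and at 62.9, 75.1, 65.1 and 65.3 CPM in the replicates without antibody. Every antibody library was higher than every other library, and the antibody libraries lay close together (81.1 ± 0.789 against 67.1 ± 5.46 CPM, SD, n = 4 each). The fold was 1.21 (95% interval 1.12 to 1.31; log2 fold change 0.28 ± 0.05 SE, edgeR adjusted p = 0.00221), and it was called under all 20 other settings tried.

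Ifngr1, which encodes the ligand-binding chain of the same receptor, stood at 215, 205, 204 and 209.9 CPM with antibody and at 235, 209, 215 and 213 CPM without. The arms overlapped (log2 fold change -0.06, 95% interval -0.16 to 0.03, edgeR adjusted p = 0.479). The type I receptor chain gene Ifnar1 had 82.6, 81.6, 86.2 and 77.7 CPM against 75.5, 78.2, 84.5 and 73.0 CPM. These values overlapped as well (0.08, 95% interval -0.03 to 0.19, edgeR adjusted p = 0.441). Its partner Ifnar2 had means of 19.9 and 19.8 CPM (0.01, edgeR adjusted p = 0.98). Ifnar2, Ifnar1 and Ifngr2 lie within 192.4 kb of chromosome 16.

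The 3 cytosolic sensor genes of viral RNA did not pass the test, with 0 at an unadjusted p under 0.05 and 0 called by edgeR, DESeq2 or limma under the other settings. Ddx58, which encodes RIG-I, had 14.1, 16.2, 12.8 and 15.4 CPM with antibody and 14.9, 17.8, 17.0 and 15.2 CPM without. The ranges overlapped (log2 fold change -0.14 ± 0.09 SE, edgeR adjusted p = 0.413). Ifih1, which encodes MDA5, had 3.47, 4.57, 4.41 and 5.36 CPM against 2.96, 5.003, 3.93 and 4.92 CPM. Its arms overlapped too, and the interval of the difference was wide (0.08, 95% interval -0.28 to 0.45, edgeR adjusted p = 0.842). Dhx58, the regulator LGP2, was lower still, with 11 to 28 counts per library (edgeR adjusted p = 0.996).

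Among the transcription factors Irf1 rose. IRF1 is induced by interferon gamma and activates class I genes (ENSMUSG00000018899, chromosome 11, 53770014 to 53778374). It stood at 35.5, 33.4, 35.4 and 37.0 CPM with antibody and at 30.0, 30.3, 31.2 and 28.04 CPM without. The lowest antibody library lay above the highest library without antibody (35.3 ± 1.47 against 29.9 ± 1.32 CPM, SD, n = 4 each). The fold was 1.19 (95% interval 1.08 to 1.30; log2 fold change 0.25 ± 0.06 SE, edgeR adjusted p = 0.0153). The call was lost without antibody replicate 4 (edgeR adjusted p = 0.0658), when replicates 1 and 4 without antibody were left out together (0.0511) and with all libraries thinned to the smallest total (0.0633), with values of 0.20 to 0.22.

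The genes for the partners of the type I response did not pass. Irf9, the DNA-binding partner of STAT2, had 20.9, 16.3, 18.4 and 18.0 CPM with antibody and 20.9, 22.1, 21.0 and 21.0 CPM without. Antibody replicate 1 reached the level of the other arm and the other 3 antibody libraries lay below it (log2 fold change -0.21, 95% interval -0.37 to -0.04, edgeR adjusted p = 0.132). Irf9 shares 123 bases with Rnf31 on the same strand in the annotation, and Rnf31 had 243 to 435 counts. Stat2 had 37.9, 37.2, 38.4 and 37.7 CPM against 42.2, 37.5, 40.5 and 38.0 CPM, which overlapped (-0.07 ± 0.06 SE, edgeR adjusted p = 0.555). Irf7, the factor that amplifies type I interferon production, had 3.21, 2.92, 2.96 and 3.15 CPM against 3.43, 3.30, 3.56 and 3.01 CPM, again with overlap (-0.11 ± 0.16 SE, edgeR adjusted p = 0.739). Irf2 and Irf3 did not pass either.

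Of the 19 effector genes 9 were too low to be tested, among them Isg15 and Ifit1. The ubiquitin-like modifier gene Isg15 had 7, 15, 6 and 8 counts in the antibody arm against 5, 10, 7 and 18 in the other. Ifit1, which binds foreign RNA caps, had 4, 8, 4 and 4 counts against 5, 2, 3 and 3. Neither gene separated the arms at this depth. The counts per library were 1 to 6 for Ifit3, 2 to 11 for Oasl2, 2 to 9 for Rtp4, 0 to 2 for Rsad2 and Ifi44, and 0 to 1 for Cmpk2. Mx1 had 6, 10, 13 and 7 counts in the antibody arm against 5, 1, 1 and 3. Scaled for depth, antibody replicate 1 of Mx1 (0.386 CPM) and replicate 1 without antibody (0.389 CPM) overlap, and Mx1 was singled out after its values were seen. When the filter was left off, none of the 11 low genes was called by edgeR, and Mx1 had the smallest adjusted p of them, 0.0898.

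Ifit2, an RNA-binding relative of Ifit1, was the exception among the IFIT genes in passing the filter. It had 5.21, 4.63, 5.13 and 5.36 CPM with antibody and 5.99, 5.80, 5.71 and 5.47 CPM without. The arms did not overlap, but the difference did not pass (log2 fold change -0.18 ± 0.12 SE, 95% interval -0.43 to 0.08, edgeR adjusted p = 0.453) and was called under none of the 20 other settings.

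Bst2 fell. It encodes tetherin, which holds budding virions at the cell surface (ENSMUSG00000046718, chromosome 8, 71534264 to 71537437). Its values were 18.8, 17.8, 16.7 and 17.3 CPM with antibody and 23.4, 22.4, 25.5 and 24.01 CPM without. Each antibody library lay below each library of the other arm (17.6 ± 0.875 against 23.8 ± 1.28 CPM, SD, n = 4 each). Bst2 was 1.35-fold lower with antibody (log2 fold change -0.43 ± 0.07 SE, 95% interval -0.59 to -0.28, edgeR adjusted p = 0.000547), the smallest adjusted p of the 28 genes, and was called under all 20 other settings.

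Parp14 and Dtx3l rose. They are neighbours with Parp9 within 139.7 kb of chromosome 16 and encode ADP-ribosylation and ubiquitin enzymes, of which DTX3L and PARP9 work as a complex. Parp14 (ENSMUSG00000034422) had 4.95, 4.95, 5.19 and 4.43 CPM with antibody and 2.10, 3.50, 3.18 and 3.90 CPM without. The arms did not overlap, and replicate 1 without antibody was the lowest library. The fold was 1.54 (95% interval 1.21 to 1.96; log2 fold change 0.62 ± 0.17 SE, edgeR adjusted p = 0.0233). Without that replicate the value was 0.45 (edgeR adjusted p = 0.0641). The call was also lost without antibody replicates 1 (0.0553), 2 (0.0619) or 3 (0.0767), with thinned libraries (0.47, edgeR adjusted p = 0.153) and with limma on RPKM, as 0.19 with a pseudocount of 1 (adjusted p = 0.092) and 0.53 with 0.1 (adjusted p = 0.101).

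Dtx3l (ENSMUSG00000049502) had 16.3, 14.6, 15.9 and 15.4 CPM with antibody and 12.9, 11.5, 13.8 and 12.4 CPM without. Its arms did not overlap either (1.23-fold, 95% interval 1.09 to 1.39; log2 fold change 0.30 ± 0.09 SE, edgeR adjusted p = 0.0343). The call was kept under 11 of 20 other settings. Of the single libraries, leaving out antibody replicates 1 (edgeR adjusted p = 0.101), 3 (0.104) or 4 (0.0694), or replicates 2 (0.097) or 4 (0.0681) without antibody, ended it, as did DESeq2 (adjusted p = 0.056). Parp9, with 15.2 ± 1.18 against 13.3 ± 1.44 CPM, did not pass (0.18, 95% interval -0.01 to 0.38, edgeR adjusted p = 0.264). Dtx3l and Parp9 overlap by 682 bases on opposite strands, and the antisense gene Gm15564, with 889 to 1743 counts, overlaps Parp9 by 5854 bases. The strand setting of the counting is not given in the sources used here, so the values of this pair are uncertain.

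**Figure D3:**
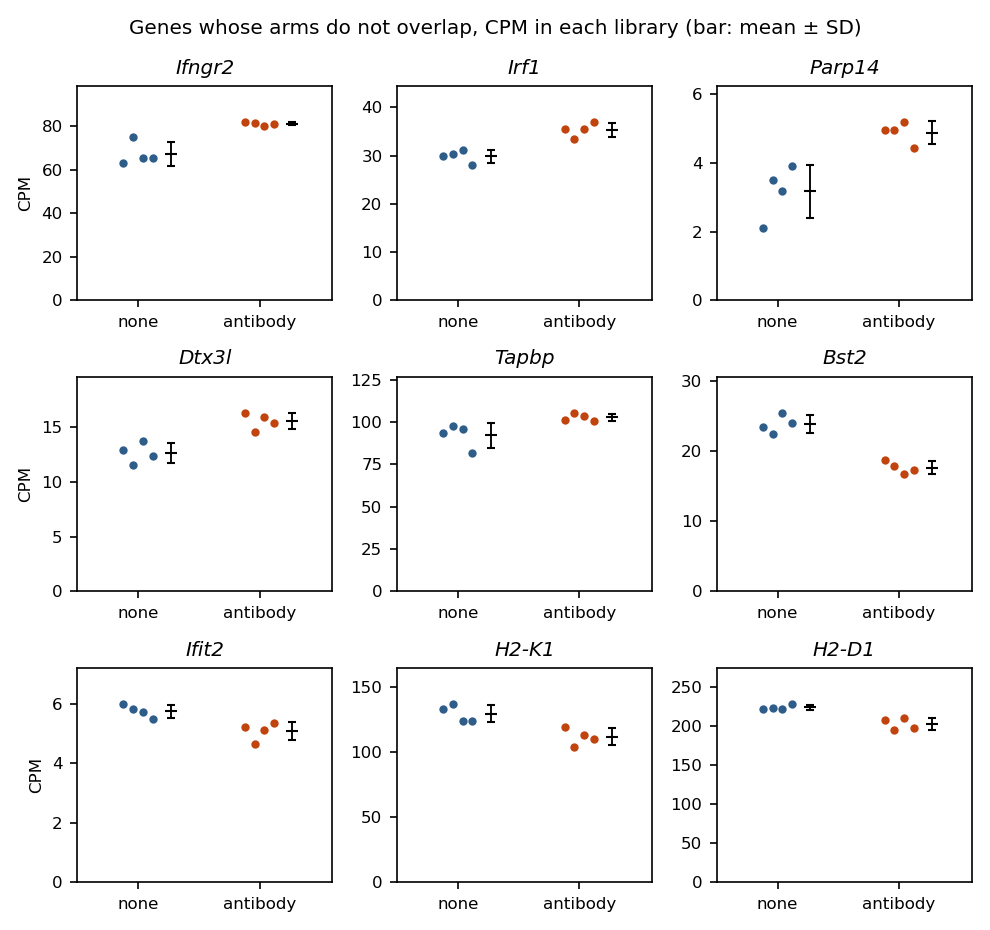
CPM in each library for the 9 genes whose arms do not overlap, with the arm without antibody on the left and the antibody arm on the right of each panel, axes from 0, and mean ± SD (n = 4) as bars. Ifngr2, Irf1, Parp14, Dtx3l and Tapbp are higher with antibody and Bst2, Ifit2, H2-K1 and H2-D1 lower, and the gap is narrow in Ifit2, where the nearest libraries are at 5.36 and 5.47 CPM.

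The 2 classical class I heavy chain genes fell slightly. H2-K1 (ENSMUSG00000061232, chromosome 17, 33996017 to 34000333) had 119.8, 104, 114 and 111 CPM with antibody and 133, 137, 124 and 124 CPM without. The arms did not overlap, and antibody replicate 2 was the lowest library. H2-K1 was 1.16-fold lower (log2 fold change -0.21 ± 0.05 SE, 95% interval -0.32 to -0.10, edgeR adjusted p = 0.0128) and was called under 17 of 20 other settings, lost without antibody replicate 2 (-0.18, edgeR adjusted p = 0.0815) and on both RPKM scales (limma, adjusted p = 0.0544 for each). H2-D1 (ENSMUSG00000073411, chromosome 17, 35262730 to 35267499) had 208, 195, 209.7 and 197 CPM against 221, 223, 222 and 228 CPM. It too showed no overlap, with a smaller difference (1.11-fold lower; -0.14 ± 0.04 SE, edgeR adjusted p = 0.0481). When libraries were left out singly its call was kept only without replicate 1 of the arm without antibody. In the other 7 fits of the 8 the values were -0.16 to -0.13 and edgeR's adjusted p 0.0674 to 0.193. H2-K1 and H2-D1 belong to a family of related class I genes, and the likeness of their transcripts was not measured here. Their reads may have been split or shared in the counting, so both values are uncertain.

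The other class I genes did not pass the test or were too low for it. B2m, which encodes the light chain of every class I molecule, had 107, 113, 117 and 119.8 CPM with antibody and 123, 127, 118 and 121 CPM without. Its arms overlapped between antibody replicate 4 and replicate 3 of the other arm (log2 fold change -0.10 ± 0.05 SE, edgeR adjusted p = 0.227). Tapbp, which encodes the peptide-loading chaperone tapasin, had 101, 106, 104 and 101 CPM against 93.8, 97.6, 95.7 and 81.5 CPM. All antibody libraries were higher than all others, but the difference did not pass (0.16, 95% interval 0.05 to 0.27, edgeR adjusted p = 0.0705). It was called without replicate 1 (edgeR adjusted p = 0.0357) or 2 (0.0497) of the arm without antibody, without a filter (0.0447) and with voom sample weights (limma, adjusted p = 0.0474). Tapbp shares 3421 bases with Zbtb22 on the same strand in the annotation, and Zbtb22 had 281 to 423 counts. The peptide transporter gene Tap1 had 1, 3, 7 and 2 counts in the antibody arm against 5, 5, 0 and 3. Nlrc5, the class I transactivator, had 9, 0, 10 and 7 counts against 8, 8, 12 and 12. Both are at the edge of detection at this depth, and their arms overlapped.

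The 11 other genes tested were Ifnar2, Dhx58, Irf2, Irf3, Oas1a, Mx2, Xaf1, Ifi35, Parp9, Usp18 and Tap2. Their log2 fold changes lay between -0.21 and 0.18, with edgeR adjusted p from 0.264 to 0.996. None was called under any of the other settings that kept it, and 7 of the 11 changed sign in at least 1 of them.

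Interferon transcripts themselves were scarce in the sorted cells. Of 11 interferon genes examined, 9 had no count in any library, and the highest count of the other 2, Ifne and Ifnz, was 4. Around the 39 genes, a list of 106 further genes of interferon signalling, interferon-induced effectors and antigen processing held 71 genes tested, of which 5 rose and 1 fell (8.45%, close to the 8.4% of all genes).

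Jak2, the kinase bound by IFNGR2, rose. It had 136, 136, 135 and 137 CPM with antibody and 109, 107, 112 and 117 CPM without (1.22-fold, log2 fold change 0.28 ± 0.05 SE, edgeR adjusted p = 0.000285). The antibody libraries formed a tight group above all others, and the call held under all 20 other settings. Jak1 (162 ± 2.25 against 154.9 ± 8.38 CPM, edgeR adjusted p = 0.449) and Tyk2 (44.2 ± 1.396 against 41.6 ± 2.17 CPM, 0.393) did not pass.

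Eif2ak2, the double-stranded RNA kinase PKR, rose from 59.6 ± 1.94 to 70.3 ± 2.78 CPM (edgeR adjusted p = 0.00484). Irgm1, an immunity-related GTPase gene, rose from 142 ± 7.61 to 162 ± 4.04 CPM (edgeR adjusted p = 0.0137), lost without antibody replicate 3 (0.0538) or 4 (0.059). Ifi27, an interferon-induced gene of the mitochondrial membrane, fell from 14.2 ± 1.69 to 9.90 ± 0.979 CPM (-0.51 ± 0.10 SE, edgeR adjusted p = 0.00299). Eif2ak2 and Ifi27 were called under all 20 other settings. Of 20 further antigen processing genes tested none passed in edgeR, DESeq2 or voom. At an unadjusted p under 0.05, 1 was higher and 1 lower. Dropping no-antibody replicate 1 gave 2 calls among the 20, and dropping no-antibody replicates 1 and 4 together gave 3, all of them higher. Calls over all genes also increased in these fits, to 1475 in the first against 1144 with all libraries. The added calls therefore do not set antigen processing genes apart. The immunoproteasome gene Psmb8 had 0 to 2 counts per library.

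**Figure D4:**
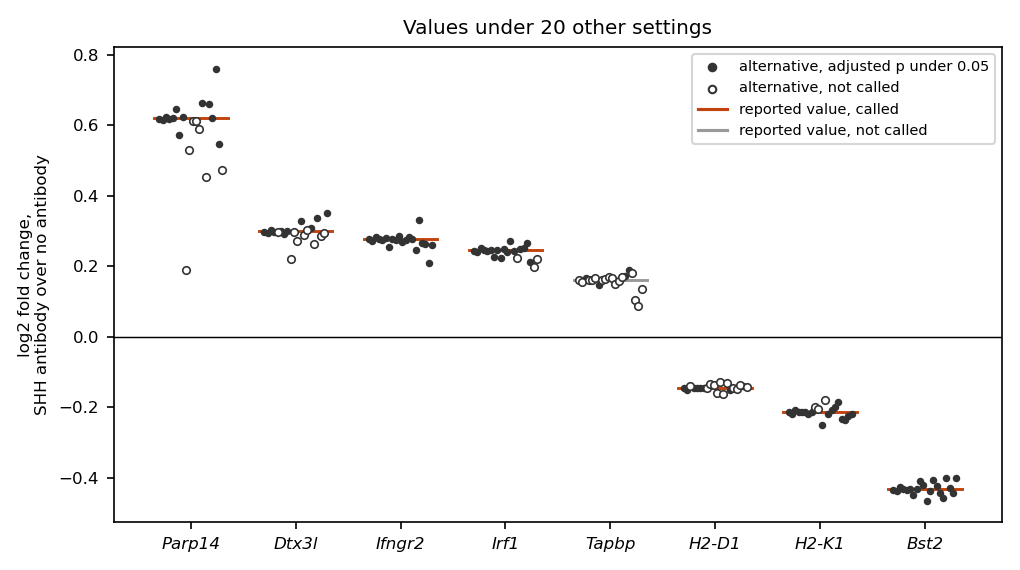
Log2 fold changes of 8 genes under the 20 other settings (points, filled where the adjusted p is under 0.05) beside the reported value (line). Bst2 and Ifngr2 are filled under every setting, while Dtx3l is filled under 11, H2-D1 under 8 and Tapbp under 4, and no gene shown crosses 0.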

How the data were processed

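PolyA RNA of sorted cancer cells was sequenced as strand-specific paired reads in 8 libraries, per the labels' protocols. The submitters' processing notes name CASAVA 1.8.2, TopHat2 2.0.9 and GRCm38. Counting tool, annotation release and strand setting: not given in the sources used here. Raw counts per Ensembl gene and RPKM values were deposited by the authors for all 8 libraries. Libraries were grouped by the treatment label.

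The test was the quasi-likelihood F test of edgeR 4.0.16 (R 4.3.3) on the counts, after filterByExpr and TMM scaling, with arm as the sole term and Benjamini-Hochberg adjustment over all genes tested, called at 0.05. CPM values are scaled with TMM factors. Standard errors come from the F statistic, intervals of fold changes are 95%, and p-values measure the spread between these libraries. For library totals an exact two-sided permutation test over 70 assignments was used. Count floors cover counting error only. Promoter windows came from RefSeq.

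The genes, the lists and the rule for genes named were chosen with earlier results of these data known. The rule gives values in every library for each gene called, each gene whose arms do not overlap, and Ifnar1, Ifngr1, Ddx58, Ifih1, Irf1, Irf7, Irf9, Stat2, Isg15, Ifit1, B2m, Tap1 and Nlrc5, and of the further pathway genes names those called, with Jak1, Tyk2 and Psmb8. Some genes of the further list and an allele of the genotype are not reported here.

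The 20 other settings were upper quartile or RLE scaling, no filter, a mean of at least 50 counts, DESeq2 1.42.0, limma 3.58.1 voom without and with sample weights, the replicate number as a block, limma on log2(RPKM + 1) and log2(RPKM + 0.1), leaving out each of 8 libraries, leaving out replicates 1 and 4 without antibody, and thinning to 10009711 counts, the last chosen after seeing the data. The fitting script was checked on simulated counts, with 50 genes changed at each fold. It recovered 62% of the genes changed 1.25-fold and 84% of those changed 1.5-fold, and 3.49% of its calls were false. A gene that did not pass may therefore still differ by a fold of this size.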

Additional observations from a re-analysis of the deposited data

Results flagged for a closer look

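In 2 of 44 groups of 4 libraries examined, a library stood far from the other 3, and chance flags about 1 in 20 such groups. Irf9 was at 22.1 CPM in replicate 2 without antibody, where the other 3 libraries of the arm lay between 20.9 and 21.0 CPM. Ifit1 was at 0.508 CPM in antibody replicate 2, or 8 counts, where the other 3 lay between 0.257 and 0.268 CPM, or 4 counts each.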

How the results depend on the processing

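On the authors' RPKM values 675 genes were called with log2(RPKM + 1) and 670 with log2(RPKM + 0.1), against 1144, and of the interferon and class I genes 2 were higher and 1 lower on either scale, with a median of -0.034 for the first. Without replicates 1 and 4 of the arm without antibody 2271 of the 13626 genes tested were called, against 1144 with all libraries. Of the 28, 2 were higher, against 4 with all libraries, and Bst2 and H2-K1 were still lower. The shares of 25% and 8.4% given above therefore do not hold for this fit. In it 8 further pathway genes were higher and 2 lower, and the median of the 28 was -0.026. With libraries thinned to the smallest total 2 were higher. Leaving out a single library gave 681 to 1475 genes called, 2 to 4 of the 28 higher and 1 to 3 lower, a median of -0.085 to -0.040, 3 to 7 further pathway genes higher and 1 to 2 lower, and a ratio of mean totals of 1.1998 to 1.363. The causes were not tested. The sign of Ifih1 reversed without antibody replicate 4 (-0.02), without replicate 1 of the other arm (-0.063) and without its replicates 1 and 4 (-0.0044), within a range of -0.063 to 0.19 over single libraries left out. With the replicate block 1005 genes were called, 4 of the 28 higher and 2 lower (H2-D1 lost, edgeR adjusted p = 0.0771), but same-numbered libraries did not deviate together (r of -0.03 to 0.01), so the numbers are not taken as pairs. Depth limits the 11 genes with 0 to 18 counts.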

Other observations

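Within a library, the ratio of counts of 2 genes does not depend on library scaling, and 4 such ratios were compared between the arms, chosen after values were seen. The log2 ratio of Tapbp to H2-K1 was -0.12 ± 0.11 with antibody and -0.50 ± 0.10 without (SD over 4 libraries, exact permutation test, two-sided p = 0.0286), and that of Jak2 to Jak1 was -0.26 ± 0.02 against -0.47 ± 0.08 (exact permutation p = 0.0286). In both the arms did not overlap. For Tapbp and H2-K1 this was fixed beforehand, since the arms of each gene already stood apart, in opposite directions. The p-value of that ratio therefore adds nothing. The ratios of Ifngr2 to Ifnar1 (difference 0.20) and of Parp14 to Parp9 (difference 0.46) overlapped between the arms (exact permutation p = 0.0571 for each). After Benjamini-Hochberg adjustment over the 4 ratios each exact p was 0.0571. A ratio shows unequal change, not which gene of the pair changed.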
